A study of Arabidopsis thaliana with 6 samples.

Results

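The genes described here are 10 regulators of the stomatal lineage of *Arabidopsis thaliana*, *SPCH*, *MUTE*, *FAMA*, *ICE1*, *SCRM2*, *TMM*, *SDD1*, *ERL1*, *ER* and *YDA*. They were picked by name for their known role and found in the count table by gene identifier. The choice used none of their measured values, though earlier results of these data were known when it was made. All 10 were present among the 26764 genes of the table. They were compared between wild-type (wt) and *3h1* seedlings, both described as in the Col-0 background. The *3h1* plants (h1.1-1h1.2-2h1.3-2) are a triple mutant with T-DNA insertions in the 3 genes for linker histone H1, the protein that binds the DNA between nucleosomes, and wt plants carry none of the insertions. Stomatal patterning was among the traits the study examined, scored on the cotyledon epidermis of seedlings younger than those used for RNA. The comparison here asks whether transcripts of the lineage regulators differed in whole seedlings. Pools of 3-week-old seedlings grown on agar plates under long days gave 3 biological replicates of each genotype, 6 libraries of total RNA depleted of ribosomal RNA. A pool of whole seedlings mixes all tissues, so fewer cells of the lineage and less RNA in each of these cells cannot be told apart.

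Stomata are pores of the plant epidermis, each flanked by a pair of guard cells that arise from a short series of divisions. Basic helix-loop-helix (bHLH) transcription factors act in sequence, *SPCH* starting the asymmetric divisions, *MUTE* ending them and *FAMA* controlling the last division and guard cell identity, each paired with the broadly expressed bHLH proteins *ICE1* (SCREAM) or *SCRM2*. Secreted EPF peptides are read by the receptor kinases *ER* and *ERL1* together with the receptor-like protein *TMM*, the protease *SDD1* restrains stomatal formation, and the kinase *YDA* heads a MAP kinase cascade that keeps *SPCH* in check and so spaces stomata apart.

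The bHLH members come as close relatives, and their sequences are shown to describe how alike they are. Reads from long exact shared stretches could be counted for either copy, and the longest such stretches are given further below. The windows below are 30 codons of the spliced coding sequence within the bHLH region, read 5′ to 3′ on the coding strand from the TAIR10.1 genome. Capitals mark bases that are identical in every gene of the set. In the first set 58 of the 90 bases and 22 of the 30 encoded residues were identical in all 3 genes.
SPCH: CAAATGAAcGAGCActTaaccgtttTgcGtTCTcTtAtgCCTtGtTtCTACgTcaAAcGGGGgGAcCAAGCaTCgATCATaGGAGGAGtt
MUTE: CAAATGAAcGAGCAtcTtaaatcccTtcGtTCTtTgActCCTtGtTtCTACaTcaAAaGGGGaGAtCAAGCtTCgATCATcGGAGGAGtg
FAMA: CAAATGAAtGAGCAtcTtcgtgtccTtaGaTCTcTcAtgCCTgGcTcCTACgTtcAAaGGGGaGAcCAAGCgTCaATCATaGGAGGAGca
The window of *SPCH* spans chr5:21588200-21588602 on the minus strand with its introns, that of *MUTE* chr3:1846567-1847179 on the plus strand and that of *FAMA* chr3:8716811-8717012 on the minus strand.

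The 2 partner genes were closer still. Here 83 of the 90 bases and all 30 encoded residues were identical.
ICE1: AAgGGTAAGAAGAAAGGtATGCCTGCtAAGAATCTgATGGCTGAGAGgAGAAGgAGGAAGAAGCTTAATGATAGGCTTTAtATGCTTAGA
SCRM2: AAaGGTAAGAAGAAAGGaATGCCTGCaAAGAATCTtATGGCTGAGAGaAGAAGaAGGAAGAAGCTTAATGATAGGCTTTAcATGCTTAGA
These windows lie in single exons, at chr3:9833810-9833899 on the minus strand for *ICE1* and chr1:4385529-4385618 on the plus strand for *SCRM2*. Over the aligned residues of the whole proteins, ICE1 and SCRM2 were 74.8% identical, ER and ERL1 63.6%, SPCH and MUTE 53.9%, MUTE and FAMA 46.0% and SPCH and FAMA 42.5%. The exact stretches shared at the DNA level were short. The longest run that *ICE1* and *SCRM2* had in common was 31 bases, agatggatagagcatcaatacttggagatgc on the coding strand, found in *SCRM2* at chr1:4385722-4385752. The longest run between *ERL1* and its paralog *ERL2* was also 31 bases, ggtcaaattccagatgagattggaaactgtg on the coding strand, found in *ERL2* at chr5:2232279-2232309. *YDA* shared up to 26 bases with *MAP3KA*, another MAP kinase kinase kinase gene, and the remaining members shared at most 21 bases with any other place in the genome or had no match in the search. A fractional count shows that the authors' counting divided reads between loci, and *ICE1*, *ERL1* and *ER* had one in 4 of the 6 libraries, *YDA* in 3, *SPCH*, *FAMA* and *SCRM2* in 2, *SDD1* and *MUTE* in 1 and *TMM* in none.

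The libraries held 4753812 to 6174881 counts, of which chloroplast genes took 55.5% to 60% in wt and 52.2% to 54.5% in *3h1*. Of the targeted genes, *H1.1* had 68.3, 103.2 and 70.8 counts per 1e6 counts (CPM) in wt replicates 1 to 3 and 12.5, 19.4 and 18.0 CPM in *3h1*, a log2 fold change of -2.28 (SE 0.21, adjusted p = 0.00163 in edgeR). *H1.2* fell by 2.58 on the log2 scale (SE 0.15, adjusted p = 4.05e-05), from 69.0, 87.2 and 85.2 CPM to 12.8, 14.2 and 13.2 CPM, while *H1.3* was not analysed here. CPM between genotypes are scaled by the trimmed mean of M values throughout, named TMM on the plots' axes, because scaling by total counts alone put the median gene 0.23 log2 units higher in *3h1*, against 0.009 after that scaling. In *3h1* replicates 1 and 3 weakly expressed genes stood higher than in the other 4 libraries. Over the 4889 genes with a mean under 0.5 RPKM (counts per kilobase of exon, also scaled for depth), the median scaled RPKM was 0.210, 0.174 and 0.154 in wt and 0.377, 0.151 and 0.546 in *3h1*.

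No stomatal lineage regulator passed the edgeR quasi-likelihood test between wt and *3h1*. Of the 9 members with enough counts to be tested, 0 had an unadjusted p under 0.05, beside 9.5% of all 17453 genes tested, and 0 had an adjusted p under 0.05, beside 0.0401% of all genes. DESeq2 and limma voom also called 0 of the 9 at either threshold. The fitted log2 fold change was above 0 for 3 members and below 0 for 6, with a median of -0.096 against 0.0105 over all genes. Taken over the 9 ways to pair 1 *3h1* library with 1 wt library, the median member difference ran from -0.34 to 0.025 with an SD of 0.12, and it was below 0 in 7 pairs. The 9 pairs reuse the same libraries, so these differences are not independent. For 8 of the 9 members the 95% interval of the change lay within 2-fold in either direction, between 0.540-fold and 1.90-fold, and *SPCH* was the exception. The genotypes' CPM did not overlap for 1 of the 9, *YDA*, beside 15.1% of all genes tested. These p values measure the spread among 3 pools of each genotype.

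**Figure D1:**
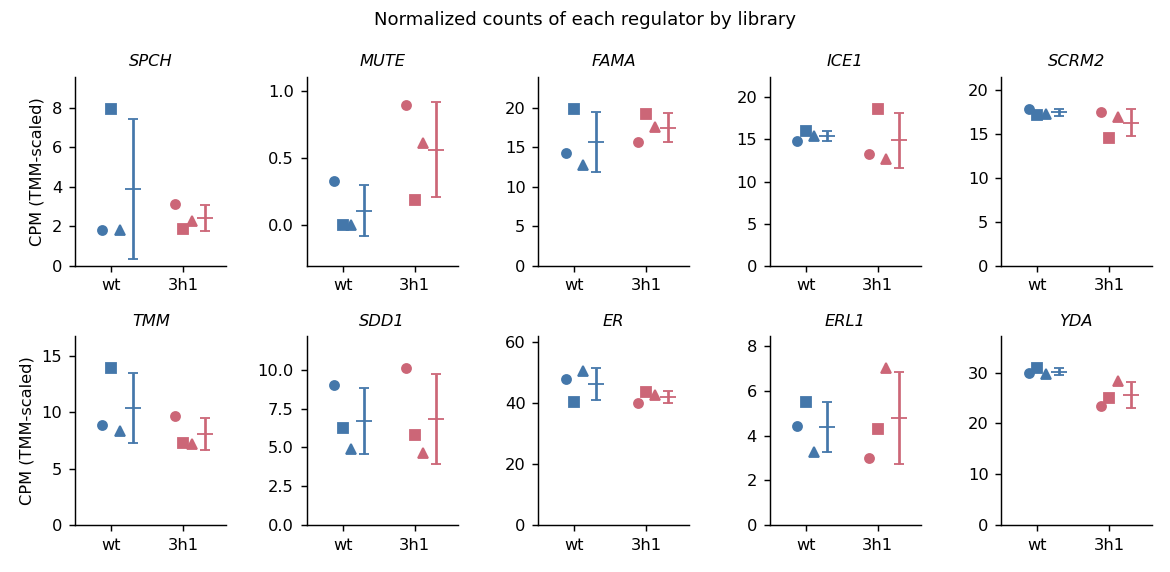
Scaled CPM of each of the 10 regulators (vertical axis, linear, 1 scale per gene) in wt (blue) and *3h1* (red), with circles, squares and triangles for replicates 1, 2 and 3 and the bar for the mean and SD of 3 libraries. The genotypes overlap for every tested gene except *YDA*, and wt replicate 2 stands apart for *SPCH* at 7.98 CPM.

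*SPCH* (AT5G53210, chr5:21586219-21589255, minus strand), which starts the lineage, was counted rarely and unevenly. It had 10.6, 31.9 and 9 counts in wt replicates 1 to 3 and 21, 10 and 15 in *3h1*. Scaled to library size these were 1.81, 7.98 and 1.83 CPM in wt and 3.13, 1.87 and 2.24 CPM in *3h1*. One wt library was thus far above the other 5, and the remaining wt libraries lay just below the lowest *3h1* value. The wt mean was 3.87 ± 3.56 CPM and the *3h1* mean 2.42 ± 0.649 CPM (SD, n = 3), with a log2 fold change of -0.60 (SE 0.56, edgeR adjusted p = 0.775). The interval of 0.281-fold to 1.56-fold is the widest of the 9 tested members, and without wt replicate 2 the sign turned, to 0.40 on the log2 scale. Among wt libraries the coefficient of variation of the *SPCH* level was 85.6%, where counting error alone gives 24.1%.

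*MUTE* (AT3G06120, chr3:1846442-1848259, plus strand), which ends the asymmetric divisions and is known from the few cells passing that step, was at the limit of detection. Its counts were 2, 0 and 0 in wt and 6, 1 and 4.08 in *3h1*, too few to pass the filter on low counts, and a count of 0 allows up to 3. Summed over libraries, 2 counts in wt stood against 11 in *3h1*, a ratio of 4.41 for equal effective depth with a 95% counting interval of 0.963 to 40.95. With no filter on low counts, the edgeR fit gave an adjusted p of 0.632. The highest *MUTE* counts, 6 and 4.08, were in *3h1* replicates 1 and 3, the libraries in which weakly expressed genes as a whole stood higher. The 15 seed and gamete genes in the table, a list with little known expression in seedlings, summed to 7.56, 7.97 and 9.33 scaled RPKM in wt and 8.89, 4.56 and 12.5 in *3h1*, lowest and highest in *3h1* replicates 2 and 3. What part this had in the *MUTE* counts was not tested.

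**Figure D2:**
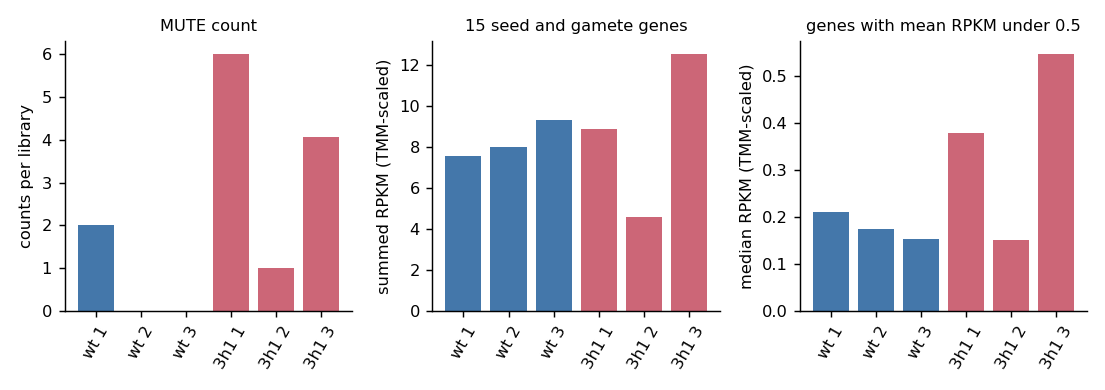
From left to right, *MUTE* counts, the summed scaled RPKM of 15 seed and gamete genes and the median scaled RPKM of 4889 genes with a mean under 0.5 RPKM, as bars from 0 for each library (wt blue, *3h1* red). *3h1* replicates 1 and 3 are high in the left and right panels, at 6 and 4.08 counts and at medians of 0.377 and 0.546 RPKM.

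*FAMA* (AT3G24140, chr3:8715118-8718211, minus strand), which acts last in the sequence, was the best counted of these 3 factors. It was at 14.3, 19.9 and 12.8 CPM in wt and 15.7, 19.2 and 17.6 CPM in *3h1*. All *3h1* values lay within the wt range. The log2 fold change was 0.17 (SE 0.19, adjusted p = 0.818), and the interval ran from 0.837-fold to 1.51-fold. The log2 fold change was 0.35 without wt replicate 2 and 0.030 without wt replicate 3.

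Neither bHLH partner passed the test. *ICE1* (AT3G26744, chr3:9832667-9835279, minus strand) was at 14.8, 15.9 and 15.4 CPM in wt and 13.3, 18.7 and 12.7 CPM in *3h1*, so the *3h1* libraries spread around a narrow wt range. Its log2 fold change was -0.052 (SE 0.19, adjusted p = 0.955). *SCRM2* (AT1G12860, chr1:4384304-4386651, plus strand) was at 17.9, 17.2 and 17.3 CPM in wt and 17.4, 14.6 and 16.9 CPM in *3h1*. The ranges overlapped, with a log2 fold change of -0.096 (SE 0.16, adjusted p = 0.879). The ratio of *ICE1* to *SCRM2* within a library, which does not depend on library scaling, was -0.33 ± 0.085 in wt and -0.30 ± 0.44 in *3h1* on the log2 RPKM scale (pseudocount 0.1, SD, n = 3, exact two-sided permutation p = 1).

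Among the receptors, *ER* (AT2G26330, chr2:11208080-11214662, minus strand), which also shapes stem and organ growth, was the most abundant. It was at 47.8, 40.4 and 50.5 CPM in wt and 39.8, 43.5 and 42.5 CPM in *3h1*, overlapping ranges with a log2 fold change of -0.14 (SE 0.14, adjusted p = 0.781). *ERL1* (AT5G62230, chr5:24996129-25002439, plus strand) was at 4.43, 5.48 and 3.25 CPM in wt and 2.98, 4.30 and 7.03 CPM in *3h1*. The lowest and the highest value both belonged to *3h1*, and the log2 fold change was 0.13 (SE 0.36, adjusted p = 0.933). Exons of *ERL1* share 82 bases with a gene on the opposite strand, AT5G62240, and whether counting used the strand is not given in the sources used here. On the log2 scale the ratio of *ER* to *ERL1* was 3.13 ± 0.51 in wt and 2.94 ± 0.54 in *3h1* (SD, n = 3, exact two-sided permutation p = 0.7).

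*TMM* (AT1G80080, chr1:30127819-30129649, minus strand), whose protein steadies peptide binding by the receptors in the lineage, was at 8.87, 13.96 and 8.32 CPM in wt and 9.70, 7.29 and 7.18 CPM in *3h1*. Here again wt replicate 2 was highest, and the other wt values lay inside the *3h1* range. The log2 fold change was -0.34 (SE 0.25, adjusted p = 0.702), with an interval from 0.540-fold to 1.15-fold, and it was -0.11 without wt replicate 2. Of the 9 tested members 6 had their highest wt value in replicate 2, namely *SPCH*, *FAMA*, *ICE1*, *TMM*, *ERL1* and *YDA*, while *ER* and *SCRM2* had their lowest there. *SDD1* (AT1G04110, chr1:1061297-1063809, minus strand) was at 9.03, 6.23 and 4.87 CPM in wt and 10.14, 5.79 and 4.64 CPM in *3h1*. The spread within each genotype was wide and nearly the same, and the log2 fold change was 0.020 (SE 0.33, adjusted p = 0.990).

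*YDA* (AT1G63700, chr1:23624627-23630073, minus strand), the cascade's first kinase, came nearest to a difference. It was at 29.9, 30.9 and 29.6 CPM in wt and 23.4, 25.0 and 28.4 CPM in *3h1*. Every *3h1* value was below every wt value in all 9 pairs. The means of 30.1 ± 0.675 and 25.6 ± 2.55 CPM (SD, n = 3) gave 0.851-fold, with an interval from 0.686-fold to 1.06-fold and an edgeR adjusted p of 0.643. The change therefore did not pass the test.

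Levels of different genes were compared per length, as RPKM from the exon length and the total count of a library. In wt *ER* was highest at 10.7 ± 1.97 RPKM (SD, n = 3), followed by *YDA* at 7.37 ± 0.701, *SCRM2* at 7.10 ± 0.902, *FAMA* at 6.03 ± 1.16, *ICE1* at 5.60 ± 0.373 and *TMM* at 5.15 ± 1.21 RPKM. The low group was *SDD1* at 2.51 ± 1.06, *SPCH* at 1.55 ± 1.33, *ERL1* at 1.14 ± 0.279 and *MUTE* at 0.120 ± 0.207 RPKM. Only the steps from *ER* to *YDA*, from *TMM* to *SDD1* and from *ERL1* to *MUTE* separated neighbours whose ranges did not overlap in wt. The median over all genes was 1.84 RPKM in wt, so the 7 regulators from *ER* to *SDD1* were above it and *SPCH*, *ERL1* and *MUTE* below. *ER* lay at percentile 87.7 of all genes, *SPCH* at 46.2 and *MUTE* at 5.63. The factors that pass the lineage from one cell state to the next thus spanned most of the distribution, from *MUTE* near the bottom to *FAMA* at percentile 78.6.

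In *3h1* the order was similar in its ends. These RPKM by total counts order genes within a genotype, because that scaling put the median gene 0.23 log2 units higher in *3h1*. The median over all genes was 2.36 RPKM in *3h1*. *ER* was again highest at 11.3 ± 0.420 RPKM and the only member separated from its neighbour, which here was *FAMA* at 7.92 ± 0.683. *SCRM2* at 7.75 ± 0.885, *YDA* at 7.32 ± 0.802, *ICE1* at 6.33 ± 1.26, *TMM* at 4.73 ± 0.882 and *SDD1* at 2.94 ± 1.27 RPKM followed. *ERL1* at 1.47 ± 0.648, *SPCH* at 1.195 ± 0.337 and *MUTE* at 0.650 ± 0.416 RPKM closed the order, and each overlapped its neighbours. Leaving *MUTE* out, the highest member was 9.37 times the lowest in wt and 9.46 times in *3h1*. The summed level of all 10 was 50.6, 56.0 and 47.9 scaled RPKM in wt and 48.3, 48.1 and 47.6 in *3h1*. The *3h1* libraries lay close together, and wt replicate 3 fell among them.

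**Figure D3:**
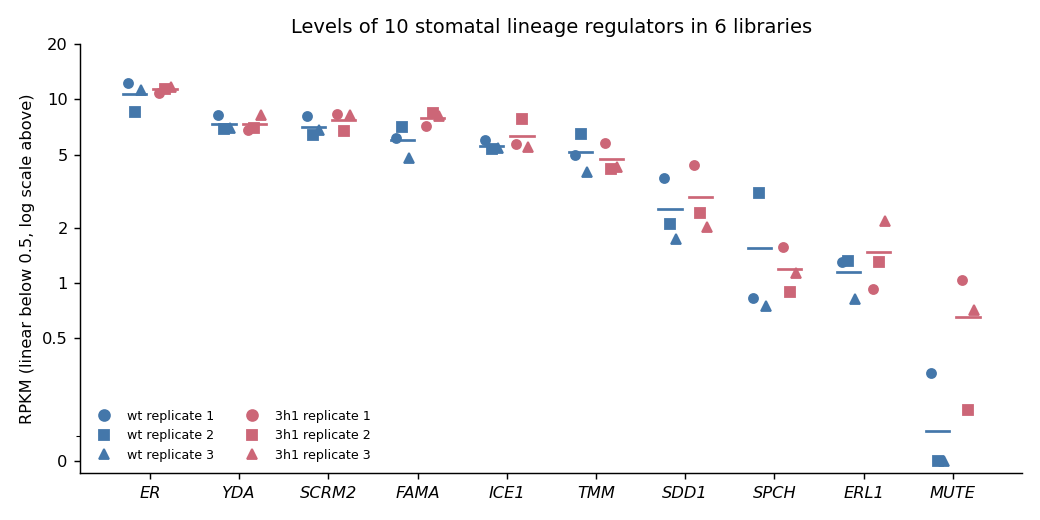
RPKM of the 10 regulators by library (vertical axis logarithmic above 0.5 and linear below it), ordered by the wt mean, with wt in blue, *3h1* in red, symbols for replicates and lines for means of 3 libraries. Levels run from *ER* at a wt mean of 10.7 RPKM to *MUTE* at 0.120 RPKM, and the genotypes follow the same broad order. These RPKM by total counts are compared between genes, not between genotypes.

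The balance of early and late factors was also compared within libraries. The log2 RPKM ratio of *FAMA* to *SPCH* was 2.77, 1.18 and 2.53 in wt and 2.13, 3.10 and 2.75 in *3h1*. The low value belongs to wt replicate 2, where *SPCH* was high, and the means of 2.16 ± 0.86 and 2.66 ± 0.49 (SD, n = 3) did not pass an exact two-sided permutation test (p = 0.6). Without wt replicate 2 the difference fell from 0.50 to 0.0081. For *MUTE* to *SPCH* the mean was -3.03 ± 1.99 in wt and -0.95 ± 0.65 in *3h1*, a difference of 2.08 (exact permutation p = 0.2) that depends on the pseudocount, since *MUTE* was at 0 in 2 libraries. It was 0.65 with a pseudocount of 1 RPKM and 4.13 with 0.01 RPKM. Over the 4 ratios computed the Benjamini-Hochberg adjusted values of these exact permutation tests lay between 0.8 and 1, and 3 libraries against 3 cannot give a p under 0.1.

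Other genes of the pathway were read from 3 lists of 32 genes, of which 27 were in the table and 24 were tested. Of these, 3 had an unadjusted p under 0.05 and 0 an adjusted p under 0.05 in edgeR, where 9.5% of all genes had an unadjusted p under 0.05. DESeq2 and limma voom also gave 3 and 0, beside 5.70% and 8.66% of all genes, DESeq2 with *BRXL2* in place of *MKK4*. A count of 3 among 24 is close to these shares. Among ligands, receptors and co-receptors, 0 of 6 tested genes had a p under 0.05. The co-receptor kinase gene *SERK1* had the smallest p of that list, at 4.76, 5.73 and 5.07 CPM in wt and 5.52, 2.99 and 2.09 CPM in *3h1*, ranges that overlapped (log2 fold change -0.54, SE 0.36, adjusted p = 0.683). Of the 3 peptide genes in the table only *EPFL9* (STOMAGEN), which promotes stomatal formation, passed the filter. It was at 4.60, 2.24 and 2.44 CPM in wt and 2.69, 3.92 and 2.84 CPM in *3h1*, overlapping ranges with a log2 fold change of -0.018 (SE 0.38, edgeR adjusted p = 0.991). *EPF2*, the peptide that limits entry into the lineage, had 6, 3 and 3 counts in wt and 6.56, 3 and 1 in *3h1*, and *EPFL6* (CHALLAH) had 6, 1 and 1 against 15.3, 4 and 5. These counts were too low for a test.

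The next list held MAP kinase kinases and MAP kinases together with the GSK3-like kinase gene *BIN2* and the *BSL* phosphatase genes, which act on the pathway from outside the cascade. Of its 9 tested genes, 1 was higher and 1 lower at an unadjusted p under 0.05, neither past adjustment. *MKK4*, a MAP kinase kinase that acts in this pathway, was at 4.27, 4.24 and 3.86 CPM in wt and 5.82, 7.29 and 5.83 CPM in *3h1* (log2 fold change 0.61, SE 0.25, edgeR adjusted p = 0.485). *MKK9*, another MAP kinase kinase, was at 9.53, 16.2 and 9.95 CPM in wt and 7.16, 6.54 and 4.34 CPM in *3h1* (log2 fold change -0.97, SE 0.27, edgeR adjusted p = 0.314). The genotypes' CPM did not overlap for 2 of the 9 tested genes, *MKK4* and *MKK9*, beside 15.1% of all genes tested. Their fitted changes had opposite signs. Both were named for their small p, so the separation is not independent of that choice. *MKK4* shares 204 exon bases with a neighbour on the same strand, AT1G51670. *MKK7* was under the filter with 1, 0 and 0 counts in wt and 5, 3 and 11 in *3h1*. Every *3h1* count was above every wt count, before scaling for depth. What part the higher level of weakly expressed genes in *3h1* replicates 1 and 3 had in these counts was not tested. With no filter on low counts *MKK7* had an unadjusted p under 0.05 and an edgeR adjusted p of 0.340.

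Of the 9 polarity proteins and late regulators tested, 1 was lower at an unadjusted p under 0.05. This was *HDG2*, an epidermal homeodomain factor that promotes stomatal differentiation, at 1212, 1383 and 979 CPM in wt and 670.5, 682 and 941 CPM in *3h1*. The *3h1* values all lay below the wt values, with replicate 3 just below (log2 fold change -0.64, SE 0.19, edgeR adjusted p = 0.328). It was the 1 gene of the 9 without overlap, beside 15.1% of all genes tested. Counts of *HDG2* were fractional in all 6 libraries, and 1082 of its exon bases overlap a long non-coding RNA gene on the opposite strand, AT1G04353, so its reads cannot be assigned with certainty. The polarity gene *BASL* had 17.8, 1 and 10 counts in wt and 13.03, 4 and 1 in *3h1*, overlapping ranges with a log2 fold change of -0.94 (SE 0.78, edgeR adjusted p = 0.748).

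Markers of mature guard cells, the end point of the lineage, were measured as a further list. Of 11 genes, all tested, 0 had an unadjusted p under 0.05 in edgeR, DESeq2 or limma voom, 4 had fold changes above 0 and 7 below, and the median was -0.072. The kinase gene *HT1*, which regulates stomatal movement in response to carbon dioxide, had the smallest p, at 1.64, 1.496 and 2.03 CPM in wt and 3.13, 2.43 and 2.69 CPM in *3h1* (log2 fold change 0.67, SE 0.38, edgeR adjusted p = 0.612). Summed over the list, guard cell markers were at 84.3 to 92.0 scaled RPKM in wt and 81.9 to 93.5 in *3h1*, and the genotypes overlapped. *GC1*, a gene whose promoter marks guard cells, was the largest part of each sum.

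**Figure D4:**
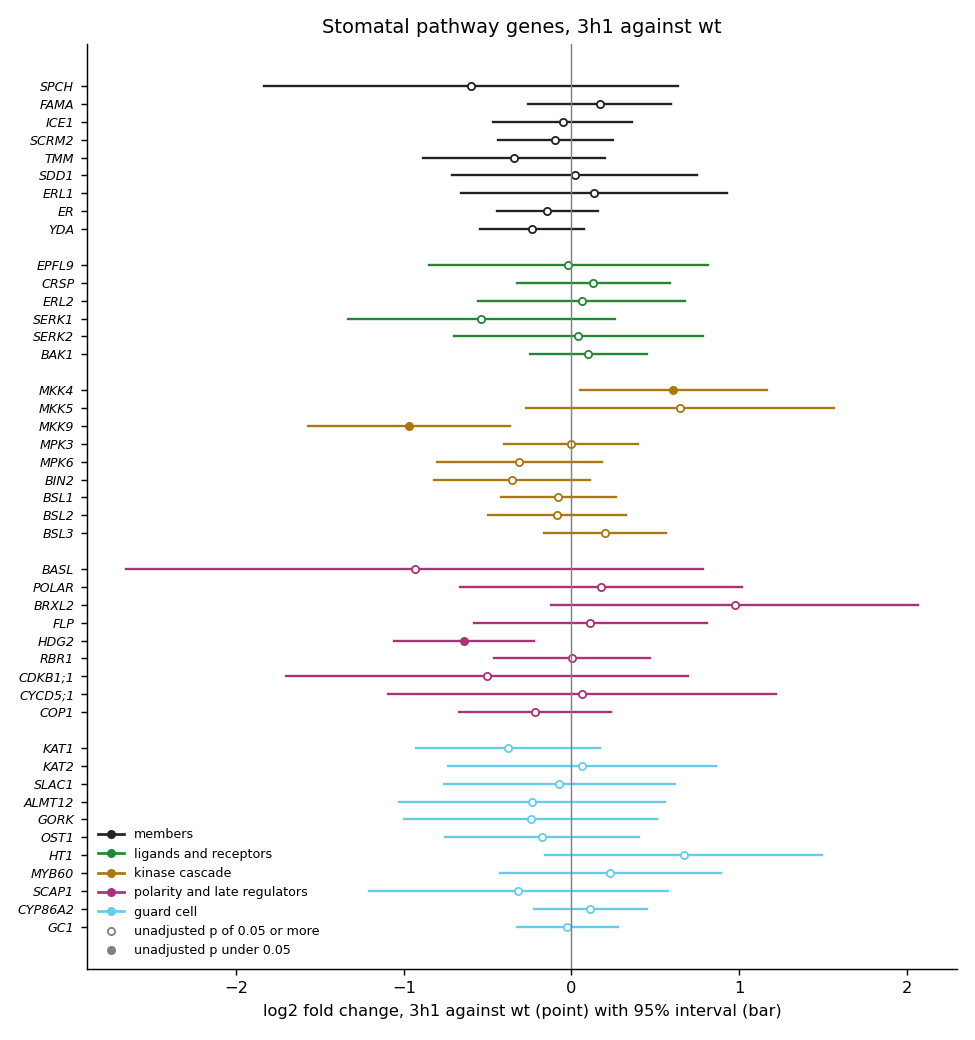
Fitted log2 fold change of *3h1* against wt (horizontal axis, points) with its 95% interval (bars) for 9 tested members in black and the other pathway lists in colours, filled points marking an unadjusted p under 0.05. The interval of each member includes 0, and the 3 filled points are *MKK4*, *MKK9* and *HDG2*.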

How the data were processed

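The members and the gene lists were chosen with earlier results of these data known. Per the methods of the study and the submitters' processing notes, reads from an Ion Proton instrument were aligned to TAIR10 and counted per ARAPORT11 gene in Partek Flow. The authors deposited expected counts, in which reads that map to several loci are divided between them, and a second table of their own fold changes, p values and FDR, which was not used. Groups and replicate numbers follow the labels. Expected counts were rounded, filtered with filterByExpr, scaled by TMM and tested with the edgeR 4.0.16 quasi-likelihood test (R 4.3.3), and p values were adjusted by the Benjamini-Hochberg method over 17453 genes. RPKM used TAIR10.1 exon lengths, which 26511 of the 26764 identifiers had. DESeq2 1.42.0, limma voom 3.58.1, other scalings and filters, a replicate block and left-out libraries were the alternatives. Depth gave a median of 29 to 51 counts per tested gene, and counting intervals cover counting error only. The procedure was tested on simulated counts. Named genes are all members, the H1 genes, and from each other pathway list the genes with the smallest p (up to 3 where p was under 0.05, otherwise 1). Genes under the filter, and *BASL*, *BRXL2*, *ATML1*, *PDF2*, *FDH*, *EPFL9*, *GC1*, *RBCS1A*, *RCA* and *TTG1*, were named after their values were seen. *EPF1*, *EPFL4*, *EPFL5*, *SERK4* and *MYB88* were not analysed here.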

Additional observations from a re-analysis of the deposited data

How the results depend on the processing

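The number of members with an unadjusted or adjusted p under 0.05 was 0 under all 16 alternatives run, and *FAMA*, *SCRM2*, *TMM*, *ER* and *YDA* kept the direction of their log2 fold change in each. *SDD1* turned to -0.033 with limma voom and -0.038 with no filter on low counts. With *3h1* replicates 1 and 3 left out together, which leaves 1 *3h1* library assumed to vary like the wt group, *SDD1* turned to -0.23, *ICE1* to 0.29 and *ERL1* to -0.014, and the median of the members moved to -0.23. Leaving out 1 library at a time gave ranges of -0.39 to 0.31 for *SDD1*, -0.97 to 0.40 for *SPCH*, -0.27 to 0.051 for *ICE1* and -0.27 to 0.39 for *ERL1*, with differences of -0.45 to 0.10 for the log2 ratio of *ER* to *ERL1*, -0.22 to 0.16 for *ICE1* to *SCRM2*, 0.0081 to 0.80 for *FAMA* to *SPCH* and 1.09 to 3.09 for *MUTE* to *SPCH*. The same ranges were -0.51 to -0.11 for *TMM* and 0.030 to 0.35 for *FAMA*. The cause was not tested. The count of other pathway genes with p under 0.05 lay between 2 and 5 without 1 library, with 5 when *3h1* replicate 1 was left out. *MKK9* and *HDG2* had p under 0.05 in each alternative that kept at least 2 libraries of each genotype, and *MKK4* in 8 of these. In these alternatives 0 of the other pathway genes had an adjusted p under 0.05. The 3 genes were named for their p in the main fit, and the alternatives refit the same libraries, so the repeats are not independent. Over all genes, calls at an adjusted p under 0.05 numbered 7, with 33 in DESeq2, 3 at a minimum of 10 counts in every library and 96 without *3h1* replicate 2. Same-numbered libraries did not deviate together (correlations of -0.052, -0.148 and -0.111), and with a replicate block 0 members had p under 0.05, the median of the members was -0.097, 2 other pathway genes had p under 0.05, and 3 genes of all passed adjustment. With nuclear counts as the library total, RPKM levels rose for all members, for example from 10.7 to 26.4 for *ER* and from 7.37 to 18.2 for *YDA* in wt, and the order of the members did not change. Low counts left *MUTE* untested, and *SPCH* was not tested at a minimum of 10 counts.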

Other observations

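The epidermis, from which stomata arise, was read through 6 marker genes, all tested. Their log2 fold changes were below 0 for 6 of 6 under the scaling used and for 5 of 6 with upper-quartile scaling or limma voom, with a median of -0.29. An unadjusted p under 0.05 was found for 1 of them in edgeR, 1 in DESeq2 and 2 in limma voom, beside 9.5%, 5.70% and 8.66% of all genes. *LTP1*, a lipid transfer protein gene of the epidermis, was at 90.7, 90.7 and 96.6 CPM in wt and 68.2, 74.0 and 73.0 CPM in *3h1* (log2 fold change -0.37, SE 0.13, edgeR adjusted p = 0.396). Its unadjusted p was under 0.05 in 13 of the alternatives that kept at least 2 libraries of each genotype. It was not without wt replicate 3 or without *3h1* replicate 1. *LTP1* was named for its small p, and the alternatives refit the same libraries, so the repeats are not independent. The ranges of *ATML1*, *PDF2*, *FDH* and *LTP1* did not overlap between genotypes, 4 of 6 genes beside 15.1% of all genes tested. Summed over the list, wt libraries were at 187.7 to 196.6 and *3h1* libraries at 152.9 to 162.3 scaled RPKM. Guard cell markers and the 10 lineage regulators overlapped between genotypes in the same measure, and the difference between these lists was not tested. It depends on the scaling. In RPKM by total counts, which puts the median gene 0.23 log2 units higher in *3h1*, the epidermis sums overlapped (158.4 to 201.6 in wt and 166.0 to 175.0 in *3h1*) and the guard cell sums did not (72.7 to 86.7 in wt and 89.5 to 97.8 in *3h1*). Much of each sum came from 1 gene. By total counts *LTP1* was at 92.0 to 112.0 RPKM in wt and 89.0 to 95.9 in *3h1*. The guard cell marker *GC1* was at 42.1 to 47.0 RPKM in wt and 49.9 to 55.0 in *3h1*.

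The 3 mesophyll markers in the table summed to 3105 to 3461 scaled RPKM in wt and 2621 to 2777 in *3h1*, while by total counts the sums overlapped (2762 to 3557 in wt and 2742 to 3015 in *3h1*). *LHCB1.2*, a light-harvesting protein gene, was at 1743, 1736 and 1453 CPM in wt and 1083, 885 and 1263 CPM in *3h1* (log2 fold change -0.61, edgeR adjusted p = 0.325). The Rubisco small subunit gene *RBCS1A* and the Rubisco activase gene *RCA* overlapped between genotypes, with log2 fold changes of -0.20 (edgeR adjusted p = 0.732) and -0.027 (edgeR adjusted p = 0.971). Markers of dividing cells summed to 22.5 to 31.1 scaled RPKM in wt and 22.3 to 24.1 in *3h1*, and 0 of 6 had an unadjusted p under 0.05 in edgeR, DESeq2 or limma voom. Of the trichome and root hair genes, 8 were in the table and 3 were tested, of which 0 had an unadjusted p under 0.05 in the same tools. All 3 log2 fold changes were below 0 in edgeR, with a median of -0.40. The genotypes' CPM did not overlap for 1 of the 3, beside 15.1% of all genes tested. This gene was *TTG1*, which had the smallest p (edgeR adjusted p = 0.570).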
